A study of Mus musculus with 5 samples.

Results

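The long non-coding RNA gene Lhx1os lies head to head with Lhx1, and the 9 genes described here are Lhx1os, Lhx1 and the other 7 members of the Lhx family (Lhx2, Lhx3, Lhx4, Lhx5, Lhx6, Lhx8 and Lhx9). They were found by matching gene symbols to the Ensembl identifiers of the count table through the GENCODE M21 annotation of GRCm38, and all 9 were among its 55471 identifiers. Polyadenylated RNA was sequenced from spinal cord of male C57BL/6J mice aged 3 months, at rest. There were 3 libraries of wild type (WT) animals and 2 of Lhx1os -/- animals (KO), in which Cas9 and 1 guide had placed a minimal synthetic polyadenylation signal and MAZ elements, which destabilise the polymerase, in the second exon of Lhx1os. The comparison asks what ending Lhx1os transcription early did to Lhx1os itself, to its neighbour and to the paralogs. Gene totals ran from 15973063 to 19437533 counts per library.

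LIM-homeodomain proteins carry a pair of LIM zinc fingers, which bind partner proteins, and a homeodomain, which binds DNA. Combinations of them mark classes of neurons in the developing cord: Lhx1 and Lhx5 in inhibitory interneurons and, for Lhx1, lateral limb motor neurons; Lhx3 and Lhx4 in motor neuron precursors and ventral interneurons; Lhx2 and Lhx9 in dorsal commissural neurons. Lhx6 and Lhx8 are best known from forebrain interneurons and forebrain cholinergic neurons. Long non-coding RNAs that start beside a developmental gene and read away from it are common, and whether they act on that gene in cis is a usual question.

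In GRCm38, Lhx1os (ENSMUSG00000087211, plus strand) spans chr11:84525660-84535831 and Lhx1 (ENSMUSG00000018698, minus strand) spans chr11:84518284-84525535, with 124 bases between them. The RefSeq promoter table (GRCm38.p6), which covers 250 bases before to 50 after each start, matched 8 of the 9 genes, all but Lhx5. The windows of Lhx1os and Lhx1 have 225 of their 300 bases in common, so a single window shows the start region of both. It is given here for chr11:84525410-84525709, plus strand, because the edited gene and its neighbour are read in opposite directions from it. Capitals mark a CCAAT box (CCAAT) and the core of a cAMP response element (TGACG, here as its reverse complement CGTCA).
Lhx1os window: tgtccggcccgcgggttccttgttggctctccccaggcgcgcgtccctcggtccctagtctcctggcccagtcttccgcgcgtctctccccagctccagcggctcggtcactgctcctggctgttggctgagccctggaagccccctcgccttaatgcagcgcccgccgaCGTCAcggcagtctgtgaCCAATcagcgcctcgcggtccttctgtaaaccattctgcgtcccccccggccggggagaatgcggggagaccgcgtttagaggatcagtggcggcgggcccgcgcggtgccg

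Both motifs were searched on both strands and do not overlap each other here. CCAAT or ATTGG occurred in 37.4% of all 32851 promoter windows and TGACG or CGTCA in 20.8%, so neither is rare. The GC box GGGCGG (35.7% of windows), the TATA box TATAAA (13.6%) and the homeodomain core TAATTA (5.29%) had no match in the Lhx1os or Lhx1 window. The window of Lhx1os held 33 CpG dinucleotides and that of Lhx1 held 31, against a median of 7 over all windows. That is more CpG than 91.4% and 89.4% of windows had, respectively. The windows of Lhx2 had 34 and 29 CpG, and those of Lhx3 had 28 and 13. Lhx4 had 19, the windows of Lhx6 had 11 to 17, Lhx9 had 6 and Lhx8 had 4.

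The annotation has 3 Lhx1os transcripts, and they differ in what the second exon is. In Lhx1os-201 it is the 74 bases of chr11:84533383-84533456, and in Lhx1os-202 and Lhx1os-203 it begins at 84534480. The guide itself is not printed here, and the labels do not say which transcript the second exon was counted in. Both forms are shown because the labels place the insertion in the second exon (plus strand, GRCm38, exons from GENCODE M21). In the longer form, chr11:84534480-84534660, capitals mark the 81 bases that all 3 transcripts include.
Lhx1os-201 exon 2: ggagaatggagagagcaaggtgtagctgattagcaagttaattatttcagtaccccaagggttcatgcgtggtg
Lhx1os-202 exon 2: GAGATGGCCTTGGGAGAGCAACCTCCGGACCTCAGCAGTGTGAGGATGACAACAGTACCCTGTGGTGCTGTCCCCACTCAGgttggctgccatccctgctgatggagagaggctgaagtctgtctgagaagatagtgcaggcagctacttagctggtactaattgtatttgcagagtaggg

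Of the 698 exonic bases of Lhx1os, 89 (12.8%) lie before the second exon of Lhx1os-201 and 163 (23.4%) before that of the other transcripts. The deposited values are sums over a gene, so they do not tell from which exons the reads in KO came.

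**Figure D1:**
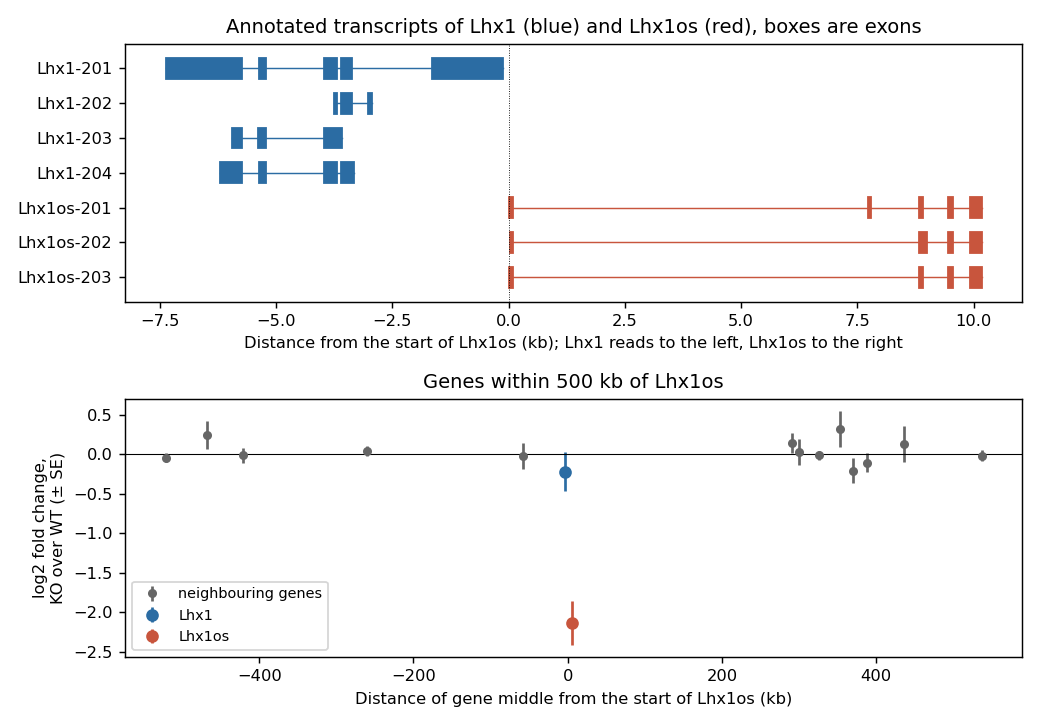
Top, annotated transcripts of Lhx1 (blue) and Lhx1os (red) with exons as boxes, against distance in kb from the start of Lhx1os; the genes are read away from each other. Bottom, log2 fold change of KO over WT with its standard error for each tested gene within 500 kb, where Lhx1os stands at −2.13 and the 13 neighbours between −0.21 and 0.32.

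The libraries differed in features that the genotypes do not account for. Markers of sensory ganglion neurons were high in WT replicate 2: the summed level of 7 of them was 48.2 CPM (counts scaled to library size with TMM factors) there and 7.47 to 7.75 CPM in the other 4 libraries. Scn10a, a sodium channel of pain-sensing ganglion neurons, had 306 counts in WT replicate 2 and 1 or 2 in each other library. Mrgprd, a receptor of such neurons, was at 2.09 CPM in WT replicate 2, at 0.0615 CPM in WT replicate 3 and at 0 in the other 3. Of the 7 markers Pou4f1 and Isl2 were at 1.72 to 5.18 CPM in the other 4 libraries, and the other 5 at 0.437 CPM or less. The members, the list counts and the genes whose value moved most are therefore given with and without WT replicate 2. Segments also differed. The summed level of 6 caudal Hox genes was 59.7 CPM in KO replicate 2 and 27.7 CPM in WT replicate 3. In the others it was 6.56 to 9.09 CPM. The summed level of 7 rostral Hox genes was highest in WT replicate 2, at 145.1 CPM against 87.1 to 117.8 CPM elsewhere. Summed meningeal fibroblast markers were 134.9, 268.2 and 312.3 CPM in WT replicates 1 to 3 and 174.5 and 188.5 CPM in KO replicates 1 and 2. Summed skeletal muscle markers were 11.5 CPM in KO replicate 1 and 2.03 to 4.12 CPM in the others. Summed motor neuron markers were 303.2 CPM in WT replicate 1 and 330.1 CPM in KO replicate 1, against 190.6 to 229.7 CPM in the rest. The defining markers of neurons, astrocytes and oligodendrocytes were all present, with Snap25 at 2720 CPM or more in every library.

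Both KO libraries held less Lhx1os than any WT library. It had 56, 66 and 51 counts in WT replicates 1 to 3 and 13 and 11 in KO replicates 1 and 2, which is 3.33, 3.37 and 3.14 CPM against 0.796 and 0.687 CPM. The KO values lay beneath all WT values, with no overlap. With so few counts, the closeness of values within a group does not measure counting error. The log2 fold change of KO over WT was −2.13 (SE 0.28; 95% confidence interval −2.76 to −1.51), or 4.39-fold lower. In edgeR's quasi-likelihood test the adjusted p over the 16052 genes tested was 0.0589, above the threshold of 0.05, while DESeq2 gave 0.00266. Without WT replicate 1 it passed (adjusted p = 0.0295). Without WT replicate 2 the value was −2.11 (SE 0.32; adjusted p = 0.177). In gene sums from bulk tissue, fewer cells of a type, less RNA per cell and RNA cut short at the second exon cannot be told apart.

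**Figure D2:**
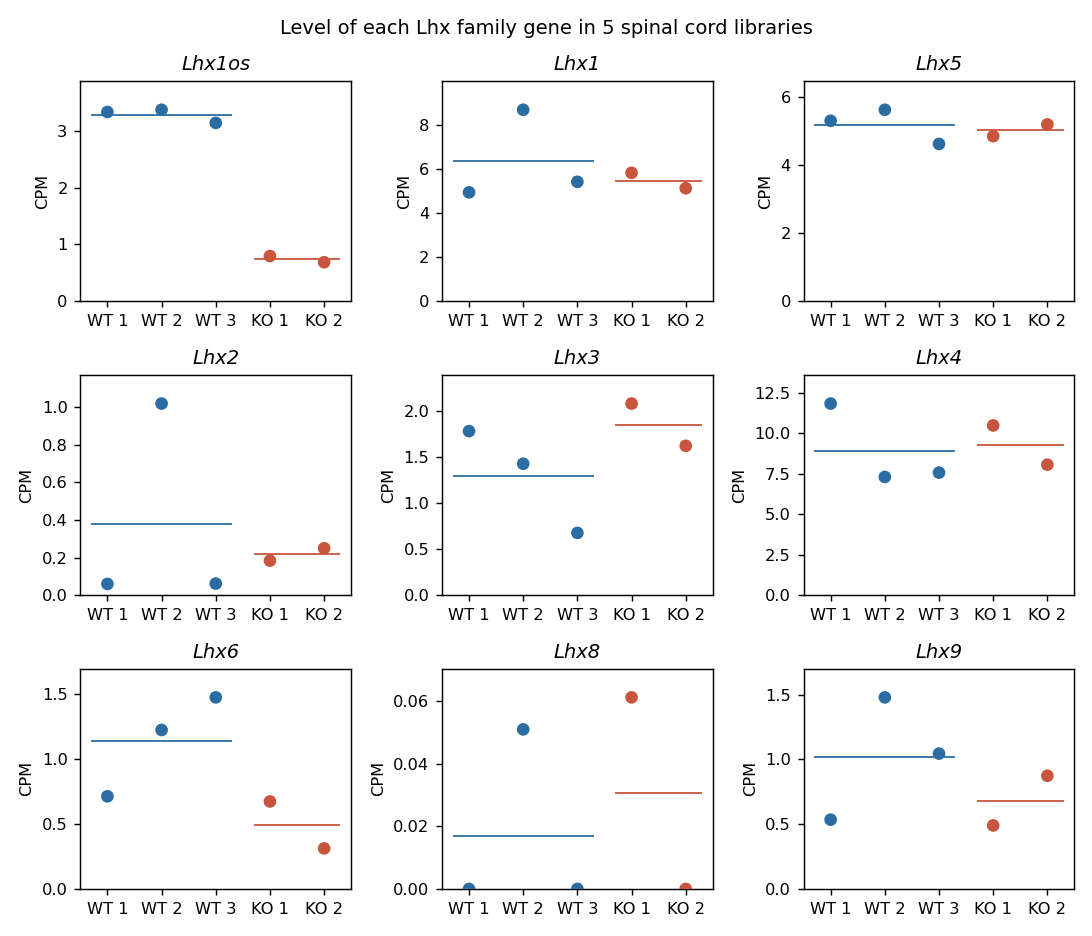
Level in CPM of each of the 9 genes in WT (blue) and KO (red) libraries, 1 point per library, with horizontal lines at the group means; each panel has its own axis from 0. Lhx1os separates the genotypes widely, Lhx6 by a narrow gap, and the other 7 genes overlap.

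Lhx1, the transcription factor gene beside it, did not pass the test. It stood at 4.93, 8.67 and 5.41 CPM in WT replicates 1 to 3 and at 5.82 and 5.12 CPM in KO replicates 1 and 2. The KO values sit inside the WT range, and the highest value, in WT replicate 2, stands apart from the other 4. The fitted log2 fold change came to −0.22 (SE 0.25; adjusted p = 0.851). Its interval reached from −0.77 to 0.33, that is from 0.585-fold to 1.26-fold of WT. Leaving out WT replicate 2 turned the sign, to 0.081 (SE 0.20; adjusted p = 0.917). The WT mean went from 6.34 ± 2.04 CPM (SD, n = 3) to 5.17 ± 0.338 CPM (SD, n = 2), and the KO mean was 5.47 ± 0.495 CPM (SD, n = 2). WT replicate 2 is the library with the high ganglion markers and the highest rostral Hox sum described above. Pou4f1, which marks sensory neurons as well as dorsal cord neurons, was also highest there, at 8.01 CPM against 4.58 to 5.18 CPM elsewhere. The parts of ganglion RNA and of cord segment in the Lhx1 value were not tested.

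A ratio of the neighbours within each library does not depend on library size. Per 100 counts of Lhx1 there were 67.5, 38.8 and 58.0 counts of Lhx1os in WT replicates 1 to 3 and 13.7 and 13.4 in KO replicates 1 and 2. The lowest WT ratio belongs to WT replicate 2, where Lhx1 was high, and it still lies above both KO ratios. On the log2 scale, with 0.5 added to each count, the ratio was −0.90 ± 0.41 in WT (SD, n = 3). In KO it was −2.83 ± 0.014 (SD, n = 2), a difference of −1.93, or 3.81-fold. The small SD in KO rests on 13 and 11 Lhx1os counts and does not measure counting error. The exact two-sided permutation test gave p = 0.1, the smallest that 3 libraries against 2 allow. Against the paralog Lhx5, whose level was steadier, Lhx1os had 62.9, 60.0 and 68.0 counts per 100 in WT and 16.5 and 13.3 in KO.

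**Figure D3:**
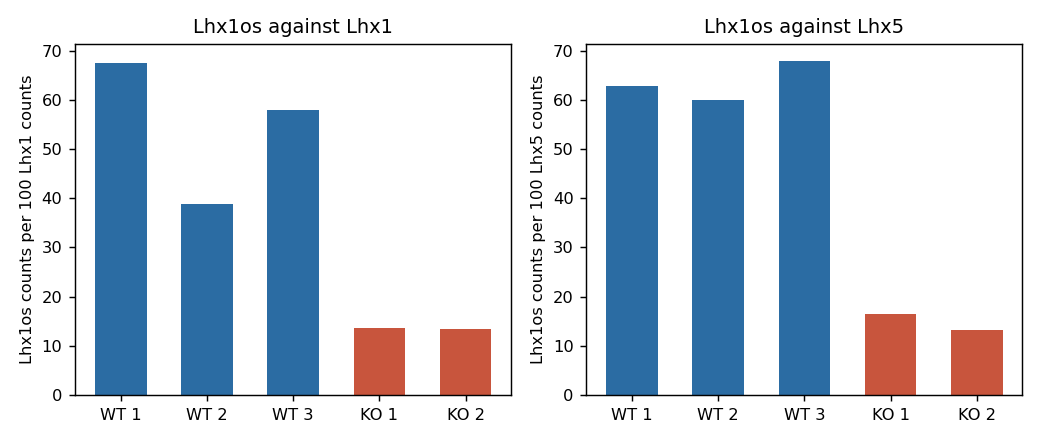
Counts of Lhx1os per 100 counts of Lhx1 (left) and per 100 counts of Lhx5 (right) in each WT (blue) and KO (red) library, as bars from 0. Both KO bars lie between 13.3 and 16.5 in either panel, below the lowest WT bar of 38.8.

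Levels of different genes were compared per kilobase of exon (CPM per kb, over the union of annotated exons). In WT, Lhx1os came first at 4.70 ± 0.177 CPM per kb (SD, n = 3), above every other member in all 3 libraries. Lhx5 (1.92 ± 0.190), Lhx1 (1.56 ± 0.50) and Lhx4 (1.55 ± 0.443) followed, and each of these overlapped the next in that order. Lhx3 was lower at 0.426 ± 0.186 CPM per kb, apart from Lhx4 in all 3 libraries. Lhx6 (0.237 ± 0.0809), Lhx9 (0.107 ± 0.0498), Lhx2 (0.0866 ± 0.126) and Lhx8 (0.00672 ± 0.0116) closed the order, and the neighbours from Lhx3 down overlapped. Per unit of exon, WT cord held 3.94, 2.26 and 3.38 times as much Lhx1os as Lhx1 in replicates 1 to 3.

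In KO the order at the top changed, with levels divided by the full annotated exon length. For Lhx1os that is 698 bases, of which 89 or 163 lie before the second exon, where the insertion was placed. A shorter length, for RNA that ends there, was not tried. The KO rank of Lhx1os, its ratio to Lhx1 and its share of genes exceeded hold for the full length only. Lhx1os moved to the fourth place at 1.06 ± 0.111 CPM per kb (SD, n = 2), under Lhx5 (1.86 ± 0.0902), Lhx4 (1.61 ± 0.298) and Lhx1 (1.34 ± 0.121). It was below Lhx1 in both KO libraries, at 0.798 and 0.783 of the Lhx1 level per kb. Against all genes tested, by mean level per kb within each genotype, Lhx1os exceeded 50.7% in WT and 20.8% in KO. Lhx5 exceeded 30.5% and 30.0%, Lhx4 26.6% and 27.4%, and Lhx1 26.7% and 24.1%. Lhx3 exceeded 9.02% and 13.2%, and Lhx6, Lhx9, Lhx2 and Lhx8 each exceeded 3.87% or less in both.

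Among the 9 genes, 7 had enough counts to be tested, and Lhx2 and Lhx8 did not. In edgeR 0 of the 7 passed at an adjusted p under 0.05, where 0.0187% of all genes tested did (3 of 16052), and 2 of the 7, Lhx1os and Lhx6, had an unadjusted p under 0.05, where 7.57% of all genes did. DESeq2 called 1 of the 4 members to which it gave an adjusted p, namely Lhx1os, and 0.299% of all genes. Lhx1os was likewise the 1 member called with DESeq2-style size factors (0.0374% of all genes), with robust dispersion (0.0748%), without a filter on low counts (0.373%), with the replicate number as a block (0.156%) and without WT replicate 1 (0.363%). No member was called with limma-voom (0.00623% of all genes), with a mean of at least 1 CPM (0.0134%), or without WT replicate 2 (0.00629%), WT replicate 3 (0.0627%), KO replicate 1 (0.00%) or KO replicate 2 (0.0181%). The groups did not overlap for 2 of the 7, both lower in KO; over all genes 24.9% were apart in either direction and 12.0% with KO lower. Log2 fold changes were below 0 for 5 and above 0 for 2, with a median of −0.22 beside 0.0044 over all genes tested. Without WT replicate 2 they were below 0 for 4 and above 0 for 3, with a median of −0.066 beside 0.0072 over all genes.

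Lhx5, the closest paralog of Lhx1, differed little between the genotypes. It stood at 5.29, 5.61 and 4.61 CPM in WT and at 4.84 and 5.18 CPM in KO, so that the KO values lay within the WT range. Its log2 fold change was −0.048 (SE 0.18; adjusted p = 0.966), and the interval ran from 0.734-fold to 1.27-fold of WT. Without WT replicate 2 it was 0.017.

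Lhx3 and Lhx4, the pair of motor neuron and ventral interneuron factors, differed more among libraries than between genotypes. Lhx4 was at 11.8, 7.30 and 7.56 CPM in WT replicates 1 to 3 and at 10.5 and 8.06 CPM in KO replicates 1 and 2, a log2 difference of 0.063 (SE 0.22; adjusted p = 0.966), or −0.066 without WT replicate 2. Its highest values came from WT replicate 1 and KO replicate 1, the libraries with most motor neuron marker RNA, given above. Lhx3 was at 1.78, 1.43 and 0.676 CPM in WT and at 2.08 and 1.62 CPM in KO, a log2 difference of 0.51 (SE 0.38; adjusted p = 0.780), or 0.58 without WT replicate 2. With each library left out in turn it ran from 0.21 (without WT replicate 3) to 0.78 (without WT replicate 1). Its lowest value came from WT replicate 3, and the other 4 libraries lay between 1.43 and 2.08 CPM. Mnx1, a homeodomain factor of motor neurons, ran at 3.69, 1.63 and 1.41 CPM in WT and at 3.37 and 2.31 CPM in KO. The part of motor neuron content in the Lhx3 and Lhx4 values was not tested.

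**Figure D4:**
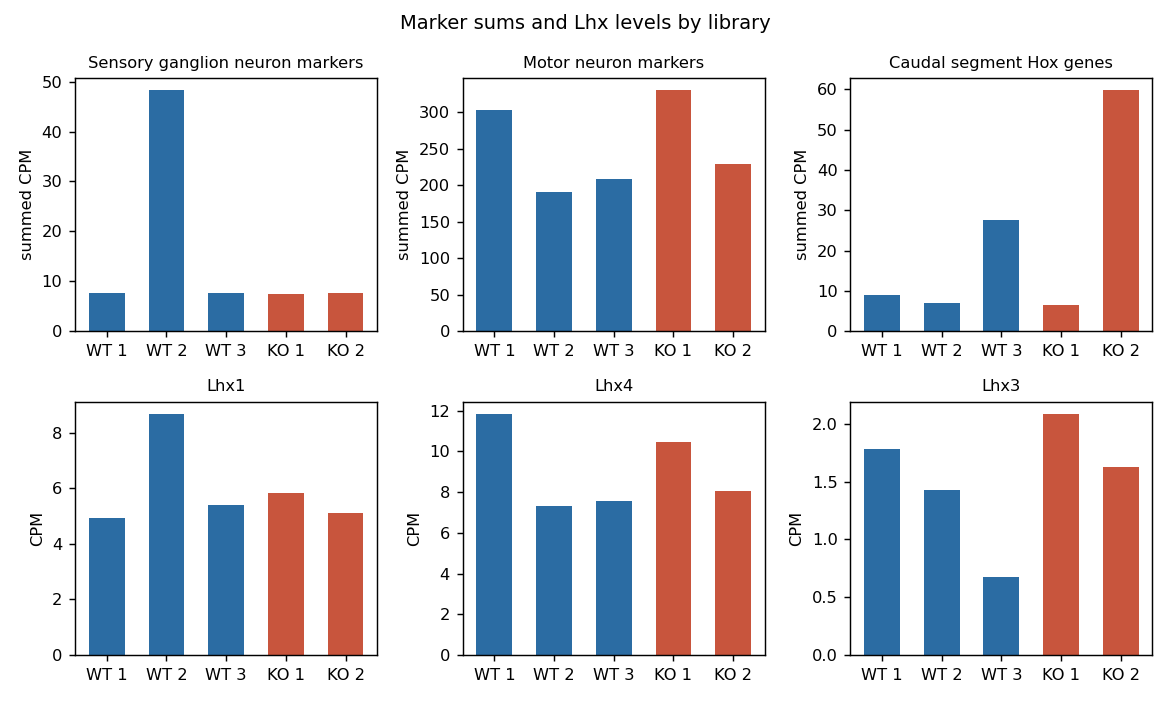
Summed CPM of sensory ganglion, motor neuron and caudal Hox marker lists (top) and CPM of Lhx1, Lhx4 and Lhx3 (bottom) in each WT (blue) and KO (red) library, as bars from 0. WT replicate 2 stands out for ganglion markers and Lhx1, and WT replicate 1 and KO replicate 1 for motor neuron markers and Lhx4.

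Lhx6 was the only tested protein-coding member whose groups did not overlap. It had 12, 24 and 24 counts in WT and 11 and 5 in KO, or 0.713, 1.22 and 1.48 CPM against 0.674 and 0.312 CPM. The gap between WT replicate 1 and KO replicate 1 amounts to less than 1 count at these depths. On the log2 scale KO differed by −1.19 (SE 0.48), with an unadjusted p of 0.0333 and an adjusted p of 0.644 in edgeR's quasi-likelihood test, and so it did not pass; without WT replicate 2 it was −1.13 (adjusted p = 0.544). Leaving out KO replicate 1 gave −1.84, and leaving out KO replicate 2 gave −0.75. Among WT libraries Lhx6 and the meningeal marker sum had the same order. In KO the orders were opposite, as the meningeal sum rose from 174.5 CPM in replicate 1 to 188.5 CPM in replicate 2. Both KO sums were above the 134.9 CPM of WT replicate 1, where Lhx6 was higher than in KO. The part of meningeal RNA was not tested. Of its exonic bases 104 (2.16%) are also annotated to Gm27953 on the same strand, so its counts are uncertain by what the counting did there.

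Lhx9 and Lhx2, the dorsal commissural pair, were scarce. Lhx9 had 9, 29 and 17 counts in WT and 8 and 14 in KO, a log2 difference of −0.60 (SE 0.49; adjusted p = 0.794) and of −0.21 without WT replicate 2, or −1.07 without KO replicate 2. Lhx2 had 1, 20 and 1 counts in WT and 3 and 4 in KO. For both genes the highest value came from WT replicate 2, and for Lhx2 that library held nearly all WT counts. Summed over libraries, Lhx2 in KO was 0.518 times WT (95% exact conditional interval 0.187 to 1.25, counting error only). Without WT replicate 2 the ratio was 3.59 (0.684 to 35.4), from 7 counts in KO and 2 in WT. The parts of ganglion RNA and of cord segment in the Lhx2 value were not tested either.

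Lhx8, a forebrain cholinergic factor, was not detectable beyond stray reads. It had a count of 0 in 3 libraries and of 1 in WT replicate 2 and KO replicate 1. A count of 0 allows up to 3 counts, which is 0.175, 0.186 and 0.188 CPM in WT replicate 1, WT replicate 3 and KO replicate 2. That limit does not hold for the libraries with 1 count, which stood at 0.0510 and 0.0613 CPM. The gene AI606473, which starts 162 bases from Lhx8 on the other strand and is the only other divergent pair in the family, had 1 count in all.

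A further 2 members have an antisense gene that starts within 2 kb of them and overlaps them. Gm27199 starts 68 bases inside Lhx5 and had 15, 18 and 17 counts in WT and 22 and 27 in KO, with every KO value above every WT value at 1.35 and 1.69 CPM against 0.892 to 1.05 CPM. Its fitted change was 0.67 on the log2 scale (SE 0.32; adjusted p = 0.678), which did not pass. Over all genes tested, 12.9% were apart with KO higher. Gm27196, antisense to Lhx3, had 10, 13 and 7 counts in WT and 5 and 5 in KO, too few to be tested. Its KO values, 0.306 and 0.312 CPM, lay below the WT range of 0.430 to 0.663 CPM. Gm27199 and Gm27196 share 69 and 188 exonic bases with Lhx5 and Lhx3, respectively. The strand setting of the counting is not given in the sources used here, so reads of these pairs cannot be told apart in the shared stretches. Lhx1os and Lhx1 share no exonic base.

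The other genes near Lhx1os did not pass. Of 19 annotated genes any part of which lies within 500 kb, 13 could be tested and 0 were called in edgeR, where 0.0187% of all genes were. In DESeq2 0 were called (0.299% of all genes), and 0 had an unadjusted p under 0.05 in edgeR (7.57% of all genes), so 13 genes are too few to set these counts apart from the whole table. Log2 fold changes were above 0 for 6 and below 0 for 7, with a median of −0.013. Without WT replicate 2 they were above 0 for 7 and below 0 for 6, with a median of 0.0032. The nearest tested genes on the side of Lhx1 were Aatf, which encodes an apoptosis-antagonising factor (−0.019, SE 0.16), and Acaca, the gene of acetyl-CoA carboxylase (0.043, SE 0.066). On the side of Lhx1os they were Mrm1, a mitochondrial rRNA methyltransferase gene (0.14, SE 0.13), and Dhrs11 (0.033, SE 0.17). Aatf was at 13.5 CPM in WT replicate 2 and at 9.51 to 11.1 CPM in the other 4 libraries, and without that library its log2 fold change was 0.16.

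LIM-homeodomain proteins work with other LIM proteins: Ldb1 and Ldb2 bridge them into complexes, Ssbp proteins stabilise Ldb, the ubiquitin ligase Rlim removes it, and the LIM-only proteins Lmo1 to Lmo4 compete for it. Of these and the remaining LIM-homeodomain genes, 14 in all, 13 could be tested and 0 were called in edgeR (0.0187% of all genes) or in DESeq2 (0.299%). At an unadjusted p under 0.05 there was 1 of 13, near the 7.57% of all genes. Their median log2 fold change was −0.0042, with 6 above 0 and 7 below, and without WT replicate 2 it was 0.013, with 8 above and 5 below. Lmo1 had the smallest p of the list, at 7.13 to 7.45 CPM in the 3 WT libraries and 9.56 and 10.3 CPM in KO. Both KO libraries were above all WT libraries, a log2 difference of 0.45 (SE 0.13; adjusted p = 0.508). The groups did not overlap for 3 of the 13 partner genes, where 24.9% of all genes were apart. Of these 3, 1 was higher in KO (Lmo1) and 2 were lower (Isl1 and Ssbp2). Ldb1, the more abundant bridging factor, averaged 78.6 ± 3.83 CPM over 3 WT libraries and 80.5 ± 1.44 CPM over 2 KO libraries (mean ± SD), a log2 fold change of 0.034 (SE 0.065). Isl1 (−0.33, SE 0.27) and Isl2 (−0.12, SE 0.28), LIM-homeodomain factors of motor and sensory neurons, and Lmx1b (−0.091, SE 0.18), a dorsal excitatory neuron factor, had intervals that include 0. Lmx1a had 1 count in each of 2 libraries. Ldb2 (−0.12), Ssbp2 (−0.12), Ssbp3 (−0.0042), Ssbp4 (0.11), Rlim (0.035), Lmo2 (0.030), Lmo3 (−0.13) and Lmo4 (0.051) completed the list, each by its log2 fold change. Ssbp4 moved to 0.24 (adjusted p = 0.387) without WT replicate 2, and Isl1 to −0.67 without KO replicate 1 and −0.060 without KO replicate 2.

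**Figure D5:**
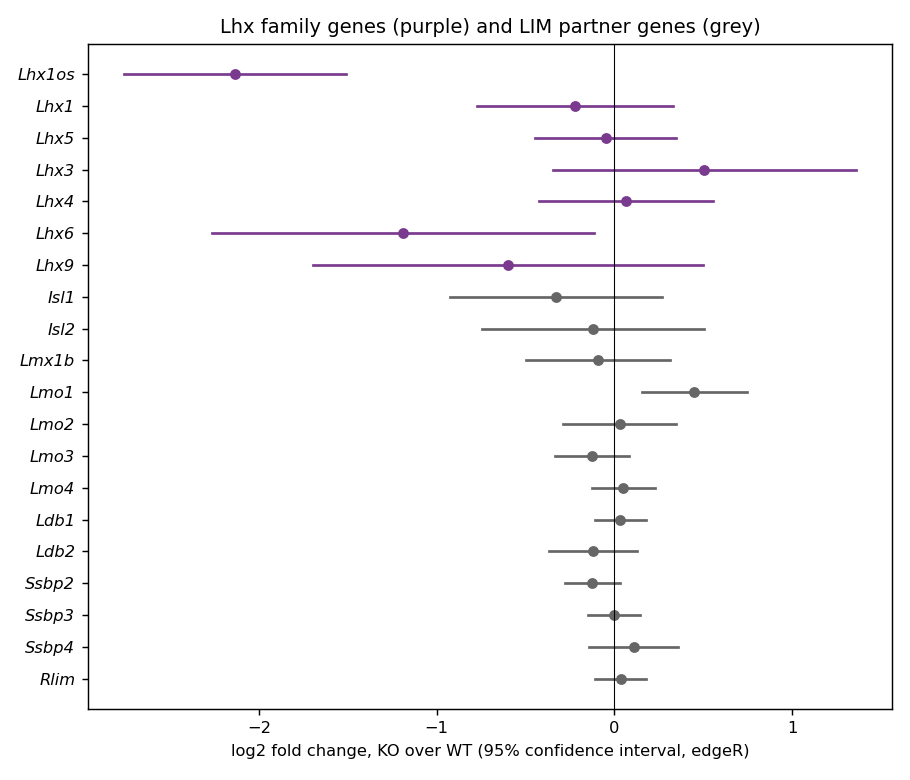
Log2 fold change of KO over WT with its 95% confidence interval for the 7 tested Lhx genes (purple) and 13 tested LIM partner genes (grey). The interval of Lhx1os runs from −2.76 to −1.51, those of Lhx6 and Lmo1 also exclude 0 before adjustment, and the remaining 17 include it.

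Genes that mark the neuron classes in which Lhx factors act were counted in the same way, and 0 of the 18 tested of 19 were called in edgeR (0.0187% of all genes), nor any of the 15 to which DESeq2 gave an adjusted p (0.299%). At an unadjusted p under 0.05 there were 2 of 18, where 7.57% of all genes were. Without WT replicate 2 there were again 2, where 10.2% of all genes were. Log2 fold changes were above 0 for 12 and below 0 for 6, with a median of 0.11 beside 0.0044 over all genes tested. Without WT replicate 2 they were above 0 for 15 and below 0 for 3, with a median of 0.096 beside 0.0072. Among 7 inhibitory genes the one of smallest p was Slc32a1, the vesicular GABA and glycine transporter. Its level was 142.5, 152.8 and 119.4 CPM in WT and 155.4 and 158.0 CPM in KO (0.18, SE 0.092; adjusted p = 0.706). The log2 fold change was 0.26 without WT replicate 2 and 0.082 without WT replicate 3. Among 7 motor lineage genes, Epha4, the axon guidance receptor whose expression Lhx1 controls in lateral limb motor neurons, was at 42.9, 41.0 and 43.7 CPM in WT and 50.5 and 50.9 CPM in KO. All KO values were higher, for a log2 fold change of 0.25 (SE 0.069) and an adjusted p of 0.456, which did not pass. The groups did not overlap for 3 of the 18 tested lineage genes, each higher in KO. Over all genes 24.9% were apart in either direction and 12.9% with KO higher. Slc18a3, the vesicular acetylcholine transporter, stood at 0.52 (SE 0.21; adjusted p = 0.644). It was 0.79 without WT replicate 1 (adjusted p = 0.0562) and 0.21 without KO replicate 1, the libraries with the highest motor neuron marker sums. Slc18a3 is itself in that marker list. Barhl1 of dorsal commissural neurons (0.45, SE 0.41) had the smallest p of its short list and an interval that includes 0; without WT replicate 2 it was 0.76 (adjusted p = 0.602).

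Genes with the most similar profile to Lhx1os and to Lhx1 were ranked by the root mean square difference between log2 CPM values centred on each gene's mean, over the 5 libraries and 14863 genes of at least 1 CPM. For Lhx1os these were Zbtb16 (0.27), Plin4 (0.32) and Hif3a (0.37), each with KO values beneath the WT range. Zbtb16 had 41.1, 56.0 and 35.1 CPM in WT and 11.9 and 14.2 CPM in KO. For Lhx1 they were Col2a1 (0.068), Plxnd1 (0.085) and Rab40b (0.089), each highest in WT replicate 2. With 5 libraries such rankings describe these libraries and carry no test.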

How the data were processed

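The deposited table holds raw counts of reads per gene, in 1 table for the 5 libraries. The submitters' processing notes list the build GRCm38 and the tools HTSeq, STAR 2.5.2b, Trimmomatic and cutadapt. Annotation release and strand setting: not given in the sources used here. GENCODE M21 matched 55144 identifiers, and the 327 others held 0.0397% of counts. Groups came from the sample titles. Where libraries did not come from separate animals, which the labels leave unsaid, p-values measure only a technical spread between samples. Libraries of a group differed beyond sampling noise (chi-square per degree of freedom 4.01 to 7.47).

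After edgeR's filterByExpr (minimum count 10, total 15), 16052 genes were fitted with TMM factors and the quasi-likelihood F test (edgeR 4.0.16, R 4.3.3), without covariates, with Benjamini-Hochberg adjustment; the procedure was tested on simulated data. The standard error of an edgeR log2 fold change was its absolute value divided by the square root of the F statistic. Confidence intervals of these log2 fold changes were built on that standard error. Limma 3.58.1 and DESeq2 1.42.0 were alternatives. Named genes were the members, LIM partners, nearest tested neighbours, start-site partners, a lineage list and 3 genes of most similar profile; from the lineage list, those of smallest p were chosen after values were seen, as were the overlapping antisense genes. Members and lists were chosen with earlier results of these data known. A gene of the lineage list is not reported here and is left out of its counts.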

Additional observations from a re-analysis of the deposited data

How the results depend on the processing

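Lhx1os stayed lower in KO in all 12 alternatives. Its log2 fold change passed the threshold with DESeq2-style size factors (−2.14, adjusted p = 0.0497), in DESeq2 (−2.15), with robust dispersion (−2.13, adjusted p = 0.0257), without a filter (−2.14, adjusted p = 0.000160) and with the replicate number as a block (−2.16, adjusted p = 0.0452); it did not with limma-voom (adjusted p = 0.0905) or a mean of at least 1 CPM (adjusted p = 0.0706). With each library left out in turn it ran from −2.25 to −2.03, passing only without WT replicate 1 (adjusted p = 0.0295). The count of members called was accordingly 1 in place of 0 under those 5 settings, and 0 to 1 with a library left out. Genes called over the whole table numbered 6 with DESeq2-style size factors, 42 in DESeq2, 1 with limma-voom, 12 with robust dispersion, 96 without a filter and 25 with the replicate block, against 3; leaving out a library gave 0 (without KO replicate 1) to 58 (without WT replicate 1), with 1 without WT replicate 2 and 10 without WT replicate 3. The cause of these differences was not tested. With the replicate block, WT replicate 3 had no KO partner and added nothing to the KO estimate, and little was left to estimate the spread. Deviations of same-numbered libraries from their group mean correlated at 0.0579 and 0.00203. With 2 KO libraries these deviations mirror each other, so such values cannot tell whether the replicate numbers pair the libraries.

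Values near 0 changed sign. With a library left out, log2 fold changes ran from −0.38 to 0.081 for Lhx1, −0.13 to 0.017 for Lhx5, −0.14 to 0.32 for Lhx4, −0.29 to 0.027 for Isl2, −0.28 to 0.024 for Lmx1b, −0.086 to 0.15 for Lmo2, −0.0033 to 0.071 for Ldb1, −0.051 to 0.030 for Ssbp3, −0.12 to 0.16 for Aatf and −0.055 to 0.11 for Dhrs11. Under the replicate block Lhx4 stood at −0.024 and Lmx1b at 0.037. The Lhx1os to Lhx1 log2 ratio lay between −2.16 and −1.76 with a library left out, and the order of members per kb was the same with the longest transcript as length. No partner or neighbour was called under any alternative. Lhx2, Lhx6, Lhx8 and Lhx9 rest on few counts.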

Other observations

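The ratio of Lhx1 to Lhx5 counts, the paralogs of the inhibitory lineages, was 0.933, 1.55 and 1.17 in WT replicates 1 to 3 and 1.20 and 0.988 in KO replicates 1 and 2. The highest ratio came from WT replicate 2, the library with high sensory ganglion markers and the highest rostral Hox sum. The KO values lay between those of WT replicates 1 and 2. Hoxa11, Hoxc11 and Hoxd11, genes of the caudal cord, had counts in KO replicate 2 alone, at 1.87, 1.12 and 1.87 CPM.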
